A study of Mus musculus with 12 samples.

Results

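Oxidative phosphorylation is run by 5 protein complexes of the inner mitochondrial membrane, and most of their subunits are encoded in the nucleus. The genes described here were every gene whose symbol begins with Ndufa, Ndufb, Ndufc, Ndufs, Ndufv, Uqcr, Cox4 to Cox8 or Atp5, together with Sdha, Sdhb, Sdhc and Sdhd, after 3 symbols that end in -ps were left out. This gave 89 genes of the 19429 listed in the 2 expression tables of the series, 88 in each table and 87 in both. By their products they fell into 35 genes of complex I, 4 of complex II, 8 of complex III, 17 of complex IV, 15 of complex V, 8 assembly factors of complex I (the Ndufaf genes), and Atp5s and Atp5sl, which carry the Atp5 name but are not subunits of the ATP synthase. Ndufa4 and its paralogue Ndufa4l2 were counted with complex IV, where the Ndufa4 protein is found.

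Complexes I and II take electrons from NADH and from succinate and pass them to ubiquinone. Complex III hands them on to cytochrome c, and complex IV passes them to oxygen. Complexes I, III and IV pump protons as they do so, and complex V, the ATP synthase, uses the returning protons to make ATP. Complexes I, III, IV and V also hold subunits read from mitochondrial DNA, so each is built from the products of 2 genomes, while complex II is wholly nuclear. White adipose progenitors carry fewer mitochondria than brown fat cells, and their mitochondrial content is known to rise as they turn into fat cells.

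The series measured messenger RNA by RNA sequencing in primary cultures from white fat of C57BL/6 mice aged 6 weeks. The cells were the stromal vascular fraction, the mixed cells left once the fat cells have been removed. TKO cells had lost all 3 genes for the microRNA miR-26, being miR-26b-/- together with miR-26a-1-/- and miR-26a-2-/-, WT cells were wild type, and both were grown until confluent. Dox cells carried the transactivator M2rtTA with the transgene eGFP.miR-26a and grew for 4 days with doxycycline at 1 mg/ml, the dose as the labels print it, and CTL cells carried the same pair of transgenes and had no doxycycline. There were 3 libraries in each of the 4 groups, and the aim given by the study was to find targets of the microRNA miR-26. CTL cells are the reference for Dox cells alone, since they carry transgenes that WT cells do not. The promoter that drives the transgene in these cells is not given in the sources used here. The labels do not say whether the libraries of a group came from separate animals or cultures, so p-values here measure the spread between these libraries, which may be technical.

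The deposited signal is a read count scaled to a common library size, and the reads recovered from it ran from 54978110 to 83461536 per TKO or WT library and from 19301969 to 25785439 per Dox or CTL library. The labelled cell type was checked against marker genes. Col1a1 and Pdgfra, which mark fibroblast-like progenitors, were high in all 12 libraries, with Pdgfra at 517 to 1082. Of the 9 progenitor markers 0 rose and 2 fell in TKO cells, Pdgfrb at -0.47 and Thy1 at -0.86 (limma adjusted p 0.017 and 0.0043). The adjusted p of Pdgfrb was 0.063 without WT replicate 1 and 0.064 without WT replicate 2. Dpp4 was low, at 2.39 to 12.1 in TKO libraries, against 6.54 to 9.32 in WT libraries. Ucp1 and Cidea of brown fat and the haemoglobin genes Hbb-bs and Hba-a1 are not listed. No listed value is 0, so a gene that is not listed may still have had reads in some libraries. All 8 macrophage and leukocyte markers were listed at low levels, and their summed signal was 55.9, 265 and 49.4 in TKO libraries, against 46.2, 36.5 and 58.9 in WT libraries, so TKO replicate 2 stood apart. The adipocyte gene Adipoq was at 16.0, 16.3 and 0.787 in TKO libraries, against 1.18, 1.85 and 2.80 in WT libraries, so TKO replicates 1 and 2 were high and replicate 3 was not. In bulk RNA, fewer cells of a type and less RNA per cell cannot be told apart.

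miR-26 acts through its seed, bases 2 to 8 of the mature microRNA, which pairs with matching sites in 3' untranslated regions (UTRs) and lowers the messenger RNAs that hold them. The mature sequences are shown because the TKO cells lack them and the Dox cells were built to make miR-26a. They are from RefSeq on GRCm38.p6, 5′ to 3′, with the seed in capitals. miR-26a-5p is made from Mir26a-1 at chr9:119031811-119031832 and from Mir26a-2 at chr10:126995543-126995564, and miR-26b-5p from Mir26b at chr1:74394324-74394344, all on the plus strand. Both share 1 seed.
miR-26a-5p: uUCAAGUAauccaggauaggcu
miR-26b-5p: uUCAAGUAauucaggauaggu

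Few of the oxidative phosphorylation genes hold a match to all or most of this seed. Of the 86 tested, 6 (6.98%) have one in the 3' UTR of the transcript taken for the gene, against 20.5% of all genes tested, and their 3' UTRs are short, with a median of 188.5 bases against 1063 bases. A match was ACTTGAA or TACTTGA, the longer TACTTGAA holding both. TACTTGA pairs with the whole seed. ACTTGAA pairs with all of the seed but its last base, and with the base before the seed. Among the sites shown, those of Cox5a and Ndufv2 match the whole seed and the others are ACTTGAA. The sites, in capitals with the transcript bases around them, are from the GENCODE vM21 annotation of GRCm38 and are shown because these 6 are the members with such a match.
Cox5a: ctgctattgcTACTTGAttgaaacagtt
Ndufa10: aacccttccaACTTGAAgaaataaagcc
Ndufaf4: gaaataggtaACTTGAAaaggtttctaa
Ndufv2: aaacccaccaTACTTGAActttagctat
Uqcrc2: caactttaacACTTGAAcagcctggatt
Uqcrfs1: tcagtcatagACTTGAAaggtgcaatgt

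Of the genes with a match, 3 rose in TKO cells and the other 3 did not pass the test. Cox5a, a nuclear subunit of complex IV, and Uqcrfs1, the Rieske iron-sulphur protein of complex III, were among the highest fold changes of their complexes, and their values stand with those complexes. Ndufa10, an accessory subunit of complex I, had a signal of 72.3, 71.1 and 67.7 in TKO libraries, against 60.0, 61.6 and 61.1 in WT libraries, and its log2 fold change was 0.21 ± 0.06 (SE, 3 libraries per group, limma adjusted p 0.024). The Ndufa10 call ended with a correction for transcript length and GC content (0.11, limma adjusted p 0.10), and without TKO replicate 1 or any 1 WT replicate, where the adjusted p was 0.056 to 0.081. The log2 fold changes of Ndufv2, Uqcrc2 and Ndufaf4 were -0.01, 0.03 and -0.17.

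In TKO cells most nuclear oxidative phosphorylation genes were higher than in WT cells. Of the 86 members tested, 61 rose and 4 fell, by limma on log2(signal + 1) with p-values adjusted over all 12649 genes tested and a threshold of 0.05. Of all genes tested 23.2% rose and 22.7% fell, and the members' shares were 70.9% and 4.65%. The median log2 fold change of the members was 0.59, a fold of 1.51, beside 0.00 for all genes tested. All 3 TKO libraries stood above all 3 WT libraries for 62 members and below them for 5, where 29.4% of all genes tested were above and 29.4% were below. Among the members, 21 rose more than 2-fold, as did 2.72% of all genes tested. Fold changes on this scale understate the change of genes with a low signal.

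The rise was present in each TKO library. Measured as the median log2 deviation of the members from the WT mean, it was 0.64, 0.68 and 0.56 in the TKO libraries, against -0.03, -0.02 and 0.05 in the WT libraries. The summed signal of all members was 6250, 6425 and 5913 in TKO libraries, against 4151, 4214 and 4381 in WT libraries. TKO replicate 3, with Adipoq below every WT library, and TKO replicate 2, with the high macrophage sum, both lay well above all WT libraries. Of the adipocyte markers 0 of 6 tested passed, though 5 were higher in TKO cells, with a median log2 fold change of 1.29. The summed signal of the 7 adipocyte markers listed was 1060, 1838 and 885 in TKO libraries, against 1309, 1111 and 1572 in WT libraries. By this sum TKO replicate 2 was above every WT library and TKO replicates 1 and 3 were below every one. Of the macrophage and leukocyte markers 0 of 7 passed and 6 were higher, with a median of 0.50, and the part of either in the rise was not tested. Without TKO replicate 2 there were 58 members that rose and 4 that fell, and without TKO replicate 3 there were 62 and 3.

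**Figure D1:**
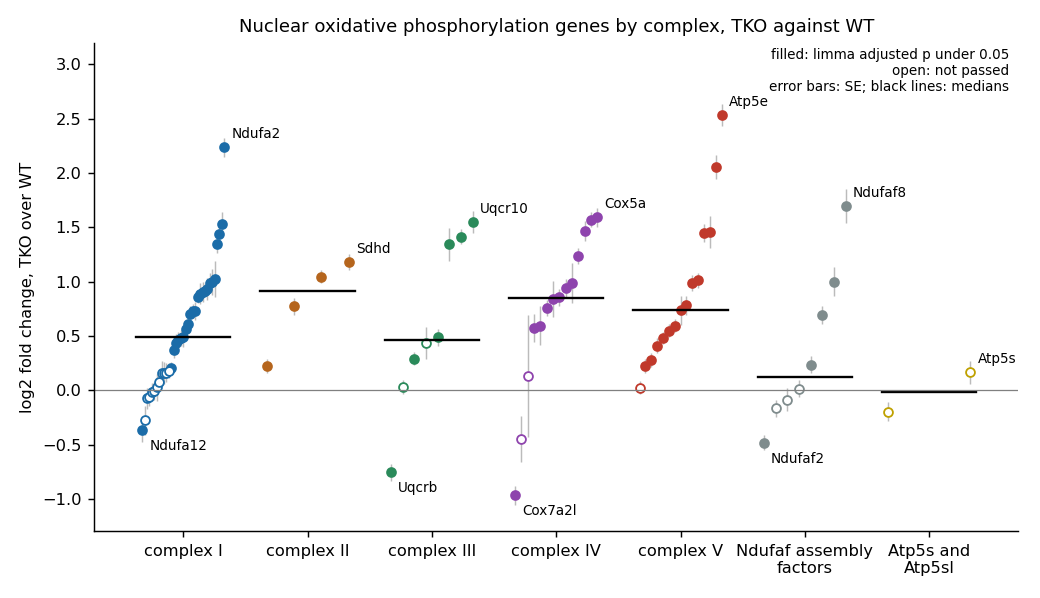
Log2 fold change of TKO over WT (vertical axis) for each of the 86 tested genes, grouped by complex, with SE bars and black lines at the medians. Filled points passed limma's adjusted p of 0.05. On the signal as deposited complex V lies wholly above 0, though Atp5h, Atp5c1 and Atp5g2 lie below 0 once the length and GC trend is taken out, and Uqcrb and Cox7a2l stand at -0.75 and -0.97, well below their complexes.

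The length of the transcripts moved with the fold changes. Removing a smooth trend with transcript length and GC content from each library left 51 members that rose and 13 that fell, where 24.6% of all genes rose and 21.9% fell, and the members' median became 0.42. The members are short, with a median transcript of 919.5 bases beside 3001 bases for all genes tested, and over all genes length and GC content accounted for 15.4% of the variance of the fold changes. The median and counts of each complex are therefore given both ways.

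Complex I, the largest of the 5, had 23 genes that rose, 1 that fell and 11 that did not pass among 35, with a median of 0.49 on the log2 scale. The counts were 20 and 8 with the trend removed, for a median of 0.24. Some of the core subunits carry the flavin or iron-sulphur clusters. Among the core subunits Ndufv1, Ndufs1, Ndufs3, Ndufs7 and Ndufs8 rose and Ndufv2 did not pass, though Ndufs3 shares 0.36 of its stretches with other genes. Ndufv1, which binds the NADH, had a signal of 59.7, 63.5 and 59.8 in TKO libraries, against 33.2, 33.2 and 33.0 in WT libraries, a log2 fold change of 0.86 ± 0.06 (SE, 3 libraries per group, limma adjusted p 0.00025). Its partner Ndufv2 had 52.9, 57.0 and 52.3 in TKO libraries, against 53.2, 51.2 and 59.6 in WT libraries, so the groups overlapped. Ndufs8 held its rise of 0.46 only without the trend removed (0.07 with it).

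The highest fold changes of complex I were in accessory subunits. Ndufa2, of the arm that faces the matrix, had a signal of 45.5, 45.4 and 40.8 in TKO libraries, against 8.42, 7.83 and 9.39 in WT libraries. Its log2 fold change was 2.23 ± 0.09 (SE, 3 libraries per group, limma adjusted p 1.0e-04), and each TKO library was more than 4 times each WT library. Ndufb6, of the membrane arm, had 38.6, 39.1 and 36.2 in TKO libraries, against 10.6, 13.1 and 13.8 in WT libraries, and a log2 fold change of 1.53 ± 0.11 (SE, 3 libraries per group, limma adjusted p 0.00027). Ndufc1, also of the membrane arm, had 28.0, 29.9 and 24.6 in TKO libraries, against 8.46, 9.77 and 10.3 in WT libraries, and a log2 fold change of 1.44 ± 0.11 (limma adjusted p 0.00029). In all 3 of these genes the groups did not overlap. Other accessory subunits did not move with them: Ndufb3, Ndufs6 and Ndufa3 were at -0.01, -0.06 and 0.07, and none of these passed. With the trend removed they were at -0.19, -0.48 and -0.26 and all 3 fell (limma adjusted p 0.047, 0.0030 and 0.017).

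The lowest values of complex I were Ndufa12 and Ndufs5. Ndufa12, an accessory subunit of the matrix arm, had 25.8, 29.2 and 24.5 in TKO libraries, against 30.7, 34.6 and 38.2 in WT libraries, and fell by 0.37 on the log2 scale (SE 0.11, 3 libraries per group, limma adjusted p 0.028). This call ended without TKO replicate 1 or 3 or WT replicate 2 or 3, where the adjusted p was 0.064 to 0.090. With library-size scaling it ended too (-0.25, limma adjusted p 0.13). Ndufs5, which faces the intermembrane space, had 28.3, 26.4 and 22.3 in TKO libraries, against 30.6, 36.5 and 27.1 in WT libraries, and did not pass (-0.28, limma adjusted p 0.13), though it fell with the trend removed (-0.54, limma adjusted p 0.015). Both genes share 50-base stretches of their transcripts with other genes or pseudogenes, a share of 0.26 of the stretches of Ndufa12 and 0.31 of those of Ndufs5, so reads could be split between copies and both values are uncertain.

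Complex II, succinate dehydrogenase, also works in the citric acid cycle. All 4 of its genes rose, with a median of 0.91, and all 4 rose with the trend removed (0.74). Sdhd, 1 of the membrane anchors that hold the ubiquinone site, had a signal of 92.0, 94.2 and 86.4 in TKO libraries, against 40.3, 36.7 and 41.8 in WT libraries, a log2 fold change of 1.18 ± 0.07 (SE, 3 libraries per group, limma adjusted p 0.00022). Sdhc, the other anchor, had 97.2, 96.2 and 88.2 in TKO libraries, against 44.0, 45.3 and 45.3 in WT libraries, a log2 fold change of 1.05 ± 0.06 (limma adjusted p 0.00022). Sdhb, the iron-sulphur subunit, had 67.2, 70.5 and 61.3 in TKO libraries, against 38.2, 36.2 and 40.7 in WT libraries, a log2 fold change of 0.77 ± 0.08 (limma adjusted p 0.00067). The catalytic subunit rose least. Sdha, which binds the flavin, had 225, 205 and 216 in TKO libraries, against 193, 184 and 177 in WT libraries, a log2 fold change of 0.22 ± 0.07 (limma adjusted p 0.032). Its call ended without TKO replicate 1 or 3 or any 1 WT replicate, where the adjusted p was 0.053 to 0.11, and with each library centred on its median gene (0.17, limma adjusted p 0.099). Of the citric acid cycle list as a whole, which holds no gene of complex II, 3 of 13 rose and 2 fell, with a median of -0.03.

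In complex III, the cytochrome bc1 complex, most genes rose on the signal as deposited. Of its 8 genes 5 rose, 1 fell and 2 did not pass, with a median of 0.46, and the counts were 4 and 1 with the trend removed, for a median of 0.12. Uqcr10, a small subunit, had a signal of 51.0, 55.6 and 46.0 in TKO libraries, against 15.1, 17.3 and 17.7 in WT libraries, a log2 fold change of 1.55 ± 0.10 (SE, 3 libraries per group, limma adjusted p 0.00025). Uqcrfs1 had 58.3, 63.3 and 58.0 in TKO libraries, against 20.9, 21.8 and 22.8 in WT libraries, a log2 fold change of 1.41 ± 0.07 (limma adjusted p 0.00013). Uqcrq, which lies beside cytochrome b, had 72.2, 69.8 and 66.0 in TKO libraries, against 21.0, 27.6 and 32.7 in WT libraries, a log2 fold change of 1.35 ± 0.15 (limma adjusted p 0.00096). For each of these 3 genes the lowest TKO library was above 2 times the highest WT library.

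The core proteins rose little or not at all, and Uqcrb fell. Uqcrc1 rose by 0.29 ± 0.06 (SE, 3 libraries per group, limma adjusted p 0.0070) and was at 0.03 with the trend removed. Uqcrc2 had 118, 117 and 123 in TKO libraries, against 124, 117 and 109.8 in WT libraries, and the groups overlapped. Uqcrb, a small subunit that binds near the ubiquinone site, fell to 57.4, 60.5 and 53.5 in TKO libraries, against 103, 97.8 and 90.1 in WT libraries, a log2 fold change of -0.75 ± 0.08 (limma adjusted p 0.00072). No TKO library reached the lowest WT library, but 0.43 of the 50-base stretches of Uqcrb occur in other genes, so its value is uncertain.

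Complex IV, cytochrome c oxidase, has subunits with tissue forms, in which the heart and muscle form replaces the form of other tissues. Of its 14 genes tested in this comparison 11 rose, 1 fell and 2 did not pass, with a median of 0.85, and 8 rose and 2 fell with the trend removed (median 0.59). Cox5a had a signal of 73.3, 77.7 and 71.4 in TKO libraries, against 22.3, 22.9 and 26.8 in WT libraries, a log2 fold change of 1.59 ± 0.09 (SE, 3 libraries per group, limma adjusted p 0.00018). Cox7a2, the form of subunit 7a outside muscle, had 63.0, 68.7 and 61.7 in TKO libraries, against 20.9, 20.8 and 21.3 in WT libraries, a log2 fold change of 1.57 ± 0.07 (limma adjusted p 1.0e-04). Cox7c had 39.0, 39.2 and 32.6 in TKO libraries, against 12.8, 12.3 and 12.9 in WT libraries, a log2 fold change of 1.47 ± 0.09 (limma adjusted p 0.00022), though it shares 0.53 of its stretches with other genes. In these genes each TKO library stood near 3 times the WT level.

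The widespread forms were the abundant ones. Cox4i1, the regulatory subunit that binds nucleotides, had 217, 232 and 200.4 in TKO libraries, against 90.7, 89.6 and 93.4 in WT libraries, a log2 fold change of 1.24 ± 0.07 (SE, 3 libraries per group, limma adjusted p 0.00021). Its lung form Cox4i2 had 0.801, 1.199 and 0.366 in TKO libraries, against 0.282, 0.467 and 0.327 in WT libraries, too low for the test. The muscle form Cox7a1 was likewise too low, at 0.382, 0.783 and 0.366 in TKO libraries, against 0.194, 0.350 and 0.291 in WT libraries. Cox6a2, the muscle form of subunit 6a, had 2.05, 3.03 and 2.21 in TKO libraries, against 2.44, 4.20 and 4.61 in WT libraries, and did not pass (-0.45, limma adjusted p 0.13), but it fell once the trend was taken out (-0.80, limma adjusted p 0.016) and without WT replicate 1 (-0.67, limma adjusted p 0.029). Its counterpart Cox6a1 rose by 0.57 ± 0.13 and Cox8a by 0.59 ± 0.18 (SE, 3 libraries per group, limma adjusted p 0.013 and 0.033). Both calls ended with the trend removed, at 0.09 and 0.12, and Cox6a1 shares 0.12 of its stretches with other genes. The Cox8a call ended without replicate 1 or 2 of either group, where the adjusted p was 0.065 to 0.088, and the Cox6a1 call without WT replicate 2 (0.051). Cox6b1 rose by 0.76 ± 0.07 (limma adjusted p 0.00059), and the testis form Cox6b2, at a mean of 3.03 ± 0.87 in TKO libraries and 1.22 ± 0.12 in WT libraries (SD, n = 3 each), rose by 0.84 ± 0.17 (limma adjusted p 0.0075), or 0.42 and not past the threshold with the trend removed.

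The 2 paralogue pairs outside the tissue forms differed within themselves. Cox7a2l, which resembles Cox7a2, fell to 79.7, 91.6 and 78.5 in TKO libraries, against 152, 166 and 174 in WT libraries. Its log2 fold change was -0.97 ± 0.09 (SE, 3 libraries per group, limma adjusted p 0.00046). It was the lowest value of all members tested, and 0.20 of its stretches occur in other genes. Ndufa4 had 115, 111 and 95.1 in TKO libraries, against 56.5, 53.5 and 55.3 in WT libraries, a log2 fold change of 0.94 ± 0.08 (limma adjusted p 0.00048). Ndufa4l2, its paralogue that rises under low oxygen, had 12.2, 32.6 and 8.48 in TKO libraries, against 7.96, 12.3 and 25.9 in WT libraries, so libraries within each group differed more than the groups did.

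In complex V nearly every gene rose. Of its 15 genes 14 rose and 0 fell, with a median of 0.73, and 11 rose and 0 fell with the trend removed (median 0.50). Atp5e, the epsilon subunit of the central stalk and the shortest member with 159 coding bases, lies at chr2:174461072-174464105 on the minus strand of GRCm38. Its signal was 59.1, 59.7 and 49.3 in TKO libraries, against 8.03, 9.12 and 9.34 in WT libraries, a log2 fold change of 2.53 ± 0.10 (SE, 3 libraries per group, limma adjusted p 1.0e-04). With the trend removed Atp5e was at 2.13, still the highest of all members. Atp5k, the e subunit that helps pair ATP synthases into dimers, lies at chr5:108433244-108434448 and had 38.8, 39.5 and 34.2 in TKO libraries, against 8.31, 7.20 and 9.41 in WT libraries, a log2 fold change of 2.05 ± 0.11 (limma adjusted p 0.00018). Both genes were above 3 times the highest WT library in each TKO library.

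The subunits of the catalytic head and stalks ranged widely. Atp5b, the beta subunit that makes the ATP, had 754, 742 and 776 in TKO libraries, against 511, 521 and 519.5 in WT libraries, a log2 fold change of 0.55 ± 0.06 (SE, 3 libraries per group, limma adjusted p 0.00095). Its partner Atp5a1, the alpha subunit, rose by 0.28 ± 0.06 (limma adjusted p 0.012), a call that ended without WT replicate 1 or 2, where the adjusted p was 0.051 and 0.066. Atp5c1, the gamma subunit that turns inside the head, had 161, 170.0 and 159 in TKO libraries, against 163, 157 and 162 in WT libraries, and the groups overlapped (0.02, limma adjusted p 0.75). Epsilon and gamma, which sit together in the central stalk, were thus the highest and the lowest of complex V. In the peripheral stalk Atp5j rose by 1.01, Atp5f1 by 0.59 and Atp5o by 0.48, the last of them not past the threshold with the trend removed (0.14), and Atp5f1 and Atp5o share 0.23 and 0.35 of their stretches with other genes. Atp5h, of the same stalk, rose by 0.23 ± 0.06 (limma adjusted p 0.028), but it was at -0.08 with the trend removed and lost its call without TKO replicate 1 or 2 or any 1 WT replicate, where the adjusted p was 0.053 to 0.092. Also, 0.51 of its stretches occur in other genes.

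Subunit c, which forms the rotor ring, is made from 3 nuclear genes whose mature proteins are the same. Atp5g3 had 153, 165 and 150.1 in TKO libraries, against 44.2, 59.4 and 67.5 in WT libraries, a log2 fold change of 1.46 ± 0.15 (SE, 3 libraries per group, limma adjusted p 0.00072). Atp5g1 had 38.7, 36.8 and 34.9 in TKO libraries, against 20.1, 19.5 and 23.5 in WT libraries, a log2 fold change of 0.78 ± 0.09 (limma adjusted p 0.0010). Atp5g2 had 32.4, 34.4 and 31.7 in TKO libraries, against 23.4, 24.1 and 25.8 in WT libraries, a log2 fold change of 0.41 ± 0.07 (limma adjusted p 0.0039) that became -0.01 with the trend removed. Of the stretches of Atp5g2, 0.87 occur in other genes, so its reads in particular could be split between copies.

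**Figure D2:**
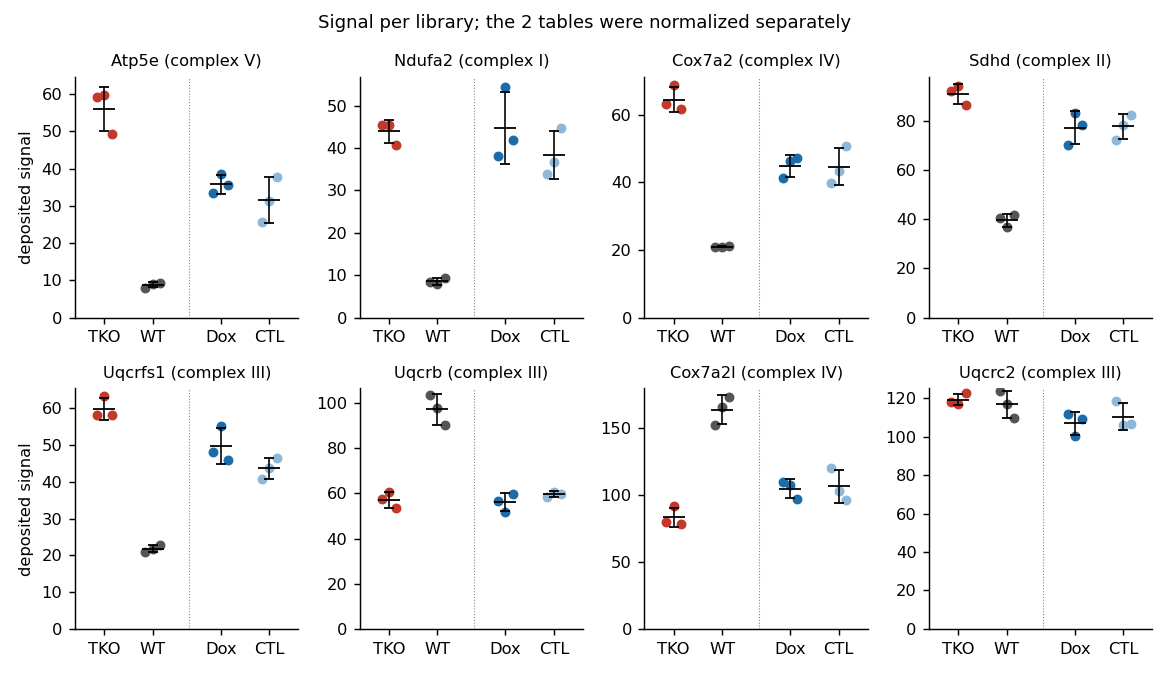
Deposited signal (vertical axis) of 8 members in each library of the 4 groups, with the mean and SD in black. Atp5e, Ndufa2, Cox7a2, Sdhd and Uqcrfs1 were higher in TKO than in WT libraries, Uqcrb and Cox7a2l lower, and the groups overlapped for Uqcrc2. The dotted line parts the 2 tables, which were normalized separately.

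The Ndufaf assembly factors, which help to build complex I without staying in it, did not share the pattern evenly. Of 8 genes 4 rose and 1 fell, with a median of 0.13. Ndufaf8 had a signal of 6.05, 5.66 and 4.93 in TKO libraries, against 0.724, 0.933 and 1.45 in WT libraries, a log2 fold change of 1.70 ± 0.16 (SE, 3 libraries per group, limma adjusted p 0.00051). Ndufaf3 had 7.02, 8.55 and 6.31 in TKO libraries, against 2.72, 3.12 and 3.56 in WT libraries, a log2 fold change of 1.00 ± 0.13 (limma adjusted p 0.0017). Ndufaf2, which resembles Ndufa12 and holds its place during assembly, had 12.9, 13.1 and 12.8 in TKO libraries, against 17.9, 19.7 and 17.9 in WT libraries, a log2 fold change of -0.48 ± 0.07 (limma adjusted p 0.0024). Ndufaf2 was the only 1 of the 4 members that fell that shares no stretch with another gene. Atp5s and Atp5sl did not pass, at 0.17 and -0.20. Atp5sl did fall with the trend removed (-0.29, limma adjusted p 0.016) and with each library centred on its median gene (-0.25, limma adjusted p 0.043).

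Leaving out the 19 members that share more than 0.1 of their 50-base stretches with other genes kept 67 tested members, of which 49 rose and 1 fell, with a median of 0.70. By the authors' deposited table, 55 members rose and 3 fell at a false discovery rate under 0.05, and the 3 were Cox7a2l, Uqcrb and Ndufaf2.

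Within the members, the shorter the coding sequence, the higher the fold change tended to be. Across the 86 members Spearman's rho between log2 fold change and coding length was -0.30, and across all genes tested it was -0.28. With transcript length rho was -0.17 across the members and -0.31 across all genes tested. With GC content it was 0.13 and 0.31. These are descriptions across genes of the same 6 libraries. Of the 29 members with the shortest coding sequences, 159 to 339 bases, 20 rose and 2 fell with a median of 0.85, or 0.62 with the trend removed. The 29 in the middle had 21 that rose and 2 that fell with a median of 0.73, or 0.28 with the trend removed. The 28 longest, 561 to 2184 bases, had 20 that rose and 0 that fell with a median of 0.42, or 0.26 with the trend removed. The part that length or RNA quality played in the rise of the members was not tested beyond this correction.

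**Figure D3:**
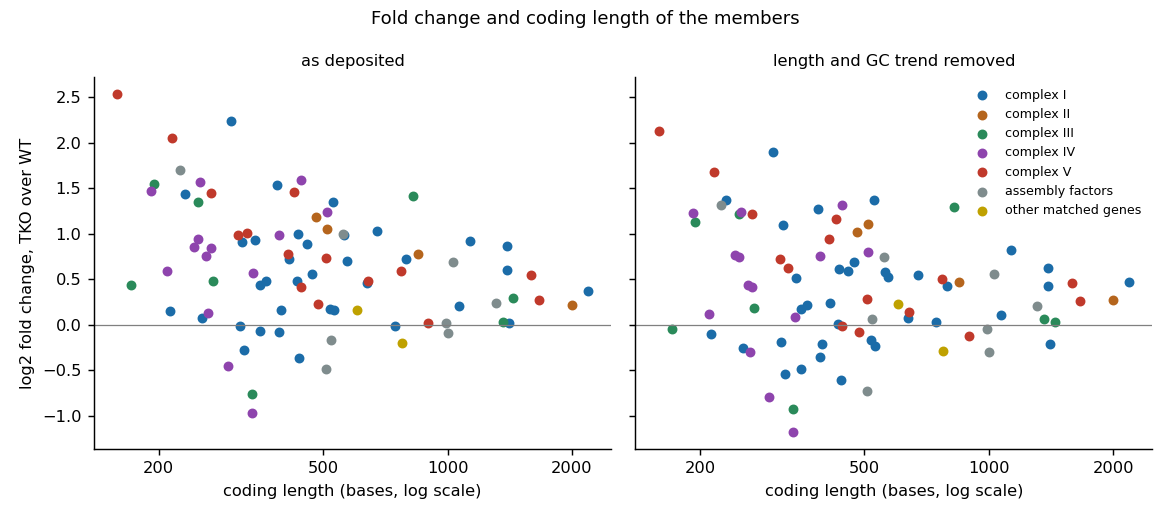
Log2 fold change of TKO over WT (vertical axis) against coding length in bases on a log scale, 1 point per tested member coloured by complex. The left panel uses the signal as deposited and the right panel the signal with the length and GC trend removed. Values above 2 are seen only for short members on the left, Atp5e, Ndufa2 and Atp5k, and Atp5e alone on the right.

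Mitochondrial DNA encodes the other subunits of these complexes, and their messenger RNA went the other way. Of 10 mitochondrially encoded genes tested, 0 rose and 9 fell, with a median of -1.56. mt-Nd1, of the ubiquinone site of complex I, had 2331, 2198 and 2188 in TKO libraries, against 8464, 8660 and 7623 in WT libraries, a log2 fold change of -1.88 ± 0.10 (SE, 3 libraries per group, limma adjusted p 0.00019). mt-Cytb, the cytochrome b of complex III, had 3582, 3094 and 3166 in TKO libraries, against 10256, 11227 and 9346 in WT libraries, a log2 fold change of -1.65 ± 0.13 (limma adjusted p 0.00031). The nuclear genes of complexes I and III had medians of 0.49 and 0.46, and no TKO library reached the lowest WT library for mt-Nd1 or mt-Cytb. mt-Co1 of complex IV fell by 1.61, but 0.51 of its stretches occur in nuclear copies, and for mt-Co2, mt-Co3 and mt-Atp6 the share is 1.00, so their low signals are uncertain. Messenger RNA was selected by its poly(A) tail, and how evenly mitochondrial transcripts were captured is not given in the sources used here.

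**Figure D4:**
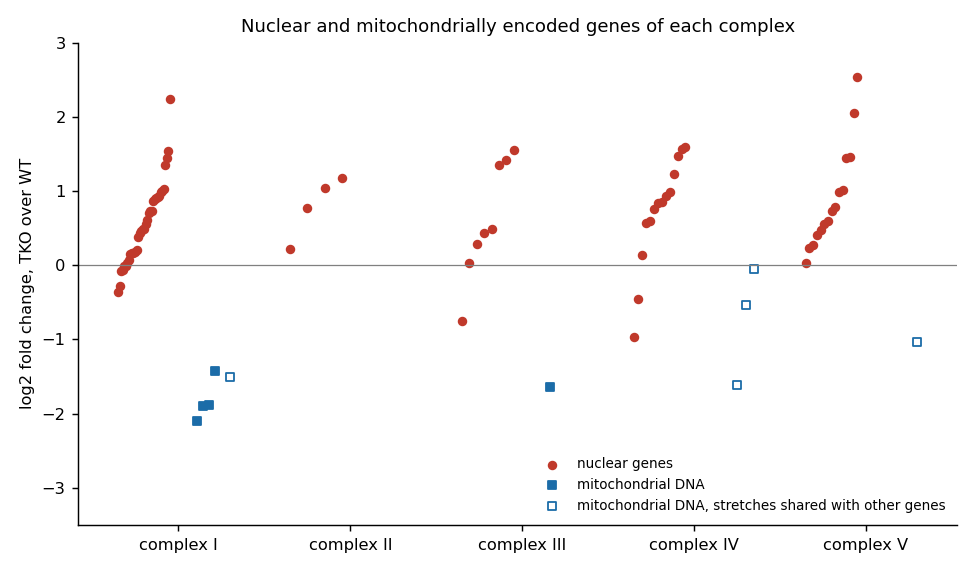
Log2 fold change of TKO over WT (vertical axis) for the tested nuclear genes (circles) and mitochondrially encoded genes (squares) of each complex. Open squares mark mitochondrial genes with more than 0.1 of their 50-base stretches in other genes. The filled squares of complexes I and III lie between -1.43 and -2.09, below every nuclear gene of those complexes.

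The genes around the complexes moved in part with them. These lists were chosen with earlier results of these data known, and their counts stand beside the 23.2% and 22.7% of all genes. Of 15 genes for electron carriers and entry points, 11 rose and 0 fell, with a median of 0.52, among them Cycs, the cytochrome c of somatic cells (0.83, with 0.28 of its stretches in other genes), and Coq6 of ubiquinone synthesis (0.95). Of 23 assembly factors of complex IV 11 rose and 1 fell, with a median of 0.24, led by Cox14 (1.51), and 13 rose and 4 fell with the trend removed. Of 8 complex I assembly factors without the Ndufaf name 4 rose and 0 fell, or 3 and 2 with the trend removed. Of 6 for complex III 3 rose and 0 fell, with Uqcc2 at 1.64, or 2 and 1 with the trend removed. For complex II 1 of 4 rose and 1 fell, Sdhaf4 at 1.74 and Sdhaf2 at -0.25, whose call ended with the trend removed and without TKO replicate 3 or WT replicate 1 or 2, where the adjusted p was 0.051 to 0.069. For complex V 1 of 5 rose and 1 fell, Tmem70 at 0.71 and Atpif1, the inhibitor of the ATP synthase, at -0.51, and 1 rose and 3 fell with the trend removed. The counts with the trend removed were 2 and 0 for complex II and 9 and 0 for the electron carriers.

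Regulators of mitochondrial genes moved both ways. Of 12 such genes 3 rose and 8 fell, with a median of -0.54. With the trend removed 3 rose and 6 fell, for a median of -0.42, and the calls that ended were those of Ppargc1a and Yy1, Yy1 being at -0.19 as deposited and -0.05 then. The call of Yy1 also ended without any 1 of the 3 WT libraries and without TKO replicate 1 or 3 (limma adjusted p 0.075 to 0.13). Esrra, a nuclear receptor that acts on oxidative phosphorylation genes, had 21.6, 20.8 and 18.2 in TKO libraries, against 6.80, 8.12 and 9.15 in WT libraries, a log2 fold change of 1.24 ± 0.12 (SE, 3 libraries per group, limma adjusted p 0.00060). Gabpa, the DNA-binding part of the factor also called NRF2, had 97.7, 83.5 and 97.2 in TKO libraries, against 176, 167 and 157 in WT libraries, a log2 fold change of -0.84 ± 0.08 (limma adjusted p 0.00067). Ppargc1a, a coactivator of mitochondrial biogenesis, was low, at 2.42, 2.21 and 1.41 in TKO libraries, against 4.10, 3.63 and 3.63 in WT libraries, a log2 fold change of -0.68 ± 0.15 (limma adjusted p 0.011), or -0.37 with the trend removed. Tfam, which packs and transcribes mitochondrial DNA, rose by 0.40 ± 0.06, and Tfb2m, its partner in transcription, fell by 0.85, though 0.40 of its stretches occur elsewhere. Nrf1 was at -0.03 and did not pass.

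Many promoters of oxidative phosphorylation genes are known to hold sites for NRF1, for ETS factors such as Gabpa, and for YY1. RefSeq promoters on GRCm38.p6, 250 bases before to 50 after the start, were found for 73 of the 89 members and searched on both strands. GCGCATGC, for NRF1, was in 12 of them (16.4%), in 5.43% of the promoters of tested genes and in 2.80% of all 27025 promoters. CCGGAAG, for ETS factors, was in 17 (23.3%), against 18.1% and 9.12%. AAGATGGC, for YY1, was in 9 (12.3%), against 4.80% and 2.88%. TATAAA was in 6 (8.22%), against 7.05% and 14.2%. No match of 1 motif overlapped that of another, and 39 promoters held none of the 4.

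The median log2 fold change was 0.46 for the 12 tested members with the NRF1 motif and 0.73 for the 59 without it. It was 0.73 for 17 members with the ETS motif and 0.63 for 54 without, and 1.03 for 9 members with the YY1 motif and 0.58 for 62 without. These are descriptions with no test, and a match is not shown to be a bound site. The 250 bases before the start are shown for the 2 members of complex V that rose most and for Cox7a2, with any motif in capitals. They lie on the minus strand at chr2:174464102-174464351, chr5:108434400-108434649 and chr9:79759854-79760103, and are written 5′ to 3′ towards the gene. Atp5e holds an ETS motif, Atp5k an NRF1 motif on both strands, and Cox7a2 none. Atp5k has an ETS motif as well, in the 50 bases after its start.
Atp5e: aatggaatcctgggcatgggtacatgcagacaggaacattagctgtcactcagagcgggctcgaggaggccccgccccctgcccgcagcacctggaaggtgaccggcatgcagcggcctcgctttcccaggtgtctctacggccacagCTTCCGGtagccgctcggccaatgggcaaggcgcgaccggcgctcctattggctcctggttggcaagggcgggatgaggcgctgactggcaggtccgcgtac
Atp5k: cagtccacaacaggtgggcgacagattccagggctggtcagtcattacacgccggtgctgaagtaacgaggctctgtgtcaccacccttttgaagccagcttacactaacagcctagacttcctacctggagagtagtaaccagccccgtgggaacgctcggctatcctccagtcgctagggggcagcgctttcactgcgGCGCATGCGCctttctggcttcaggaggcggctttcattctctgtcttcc
Cox7a2: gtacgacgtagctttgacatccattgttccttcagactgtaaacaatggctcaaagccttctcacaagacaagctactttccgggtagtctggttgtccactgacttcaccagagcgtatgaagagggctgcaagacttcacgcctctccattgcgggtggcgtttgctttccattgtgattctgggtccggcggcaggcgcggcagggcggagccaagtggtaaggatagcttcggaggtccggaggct

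In Dox cells, made to produce more miR-26a, no oxidative phosphorylation gene passed the test against CTL cells. On simulated counts for this comparison limma recovered 81% of 2-fold changes and 23% of the smaller changes simulated. For TKO against WT it recovered 94% and 58%, so in that setting small changes were missed more often for Dox cells. The simulations changed 200 genes and were fitted without the replicate block, so these rates may not hold for the data. limma called 0 of 12634 genes (0%) and so 0 of 86 members, while 748 genes and 6 members had an unadjusted p under 0.05. On recovered reads edgeR called 0 genes and DESeq2 99, among them 0 members. The median log2 fold change of the members was 0.07, beside 0.01 for all genes tested, and the medians of complexes I to V were 0.08, 0.01, 0.09, 0.09 and 0.04.

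The Dox and CTL libraries paired by replicate number, and the pairs differed. Dox exceeded CTL for 51 of 86 members in pair 1, for 71 in pair 2 and for 33 in pair 3, with median log2 ratios of 0.03, 0.18 and -0.02. For all genes tested these medians were -0.01, 0.03 and 0.01. Dox was higher in every pair for 19 members and lower in every pair for 8, where 21.4% of all genes tested were higher and 18.2% lower in every pair, so the count that was higher lay near the background and the count that was lower under it.

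**Figure D5:**
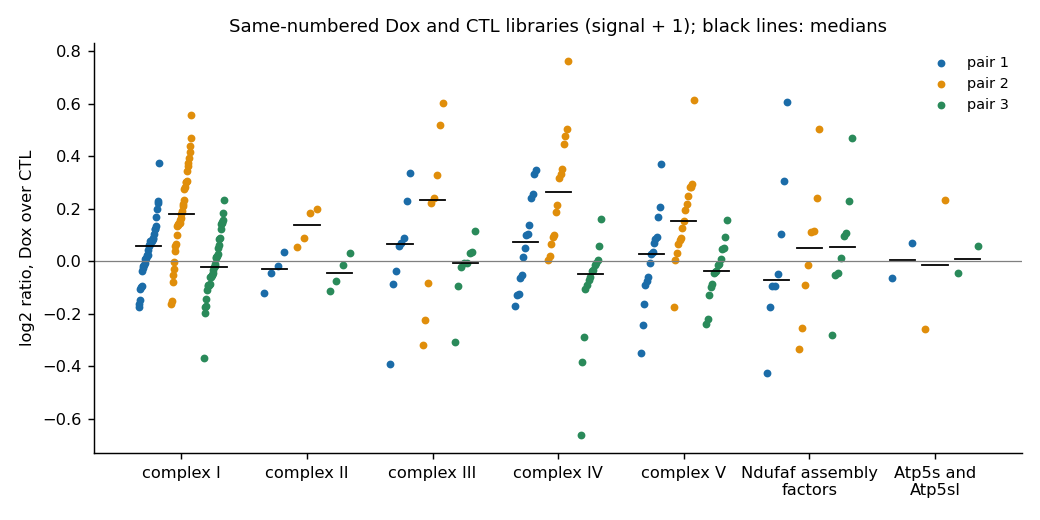
Log2 ratio of Dox over CTL, each signal plus 1 (vertical axis), for each tested member in the 3 same-numbered pairs, grouped by complex, with black lines at the medians. In complexes I to V the pair 2 medians lie above those of pairs 1 and 3.

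With the replicate number as a block, 0.562% of all genes rose and 1.54% fell. Of the members 0 rose and 1 fell (1.16%), each under the share of all genes. The member was Uqcrh, the hinge protein of complex III that binds cytochrome c1. It had a signal of 65.5, 80.0 and 78.9 in Dox libraries, against 86.2, 100.1 and 97.8 in CTL libraries, lower in each of 3 pairs. Its log2 fold change was -0.34 ± 0.07 (SE, n = 3 pairs, limma adjusted p 0.049 with the block), and without the block the adjusted p was 0.71. Without pair 1 its limma adjusted p with the block was 0.495. In TKO cells Uqcrh rose by 0.49, but with the block and trend removed it was at 0.18 and did not pass (limma adjusted p 0.072).

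With both the block and the trend removed, 2.96% of all genes rose and 4.41% fell, and 3 members (3.49%) rose and 2 (2.33%) fell. The count that rose thus lay near the background and the count that fell under it. Those that rose were Uqcrq, Ndufa6 and Ndufaf8, and those that fell were Uqcrh and Atp5h. Uqcrq had 99.2, 102.5 and 91.4 in Dox libraries, against 78.4, 67.1 and 84.3 in CTL libraries, and was at 0.35 on the log2 scale (limma adjusted p 0.037 with the block and trend removed, 0.10 with the block). Ndufa6, an accessory subunit of complex I, had 42.8, 40.6 and 35.2 in Dox libraries, against 32.8, 29.1 and 31.8 in CTL libraries, and was at 0.31 (limma adjusted p 0.028). Ndufaf8 was at 0.43 (limma adjusted p 0.0495), and Atp5h, with 63.5, 70.4 and 67.1 in Dox libraries, against 81.1, 79.7 and 79.3 in CTL libraries, was at -0.27 (limma adjusted p 0.026). Of these 5, Ndufaf8 alone had Dox libraries that overlapped the CTL libraries. Over all members tested, 3 lay above all CTL libraries in all Dox libraries and 4 below, where 6.50% of all genes tested were above and 5.66% below.

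The genes that led in TKO cells were near their CTL level in Dox cells. Atp5e had 33.4, 38.5 and 35.6 in Dox libraries, against 25.6, 31.3 and 37.8 in CTL libraries. Ndufa2 had 38.1, 54.4 and 41.8 in Dox libraries, against 33.8, 36.7 and 44.6 in CTL libraries. Cox7a2 had 41.2, 46.4 and 47.1 in Dox libraries, against 39.8, 43.4 and 50.7 in CTL libraries. In all 3 the groups overlapped, with log2 fold changes of 0.19 ± 0.15, 0.21 ± 0.16 and 0.01 ± 0.11 (SE, n = 3 per group). Cox7a2l had 109.9, 107.7 and 96.8 in Dox libraries, against 120.0, 102.9 and 96.4 in CTL libraries, and Uqcrb had 56.7, 51.9 and 59.6 in Dox libraries, against 58.2, 60.8 and 59.9 in CTL libraries. Cox5a, which holds a match to the whole seed, and Uqcrfs1, which holds ACTTGAA, were at 0.37 and 0.18, neither past the threshold. Cox8b, a muscle form listed in the Dox and CTL table alone, stayed under 0.19 in every library and was not tested.

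Across the 2 tables the CTL cells sat closer to TKO than to WT cells. The tables were normalized separately and the cultures differ in transgenes, so this is a comparison of levels with no test. The log2 of the CTL mean signal lay nearer that of TKO than that of WT for 71 of 86 members (82.6%). This held for 68.3% of the 12373 genes tested in both tables. Of the 61 members that rose in TKO cells the share was 93.4%, and of all genes that rose it was 82.7%. For all genes called in either direction the share was 79.8%. Genes that passed were chosen by the gap between these same TKO and WT libraries, and that choice can itself raise the share. Ndufa2 averaged 43.9 in TKO, 8.55 in WT, 44.8 in Dox and 38.3 in CTL libraries, and Uqcrb averaged 57.1 in TKO, 97.1 in WT, 56.1 in Dox and 59.6 in CTL libraries. For these genes the WT libraries were the ones that stood apart from the other 3 groups.

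Levels per kilobase of transcript differed widely within a complex. In TKO cells complex V had a median signal per kilobase of 121 and ran up to 395 for Atp5b, against a median of 66.4 and up to 270 for Atp5b in WT cells. Complex I had a median of 38.3 per kilobase in TKO cells, against 29.5 in WT cells. In complex II, which has only 4 genes, the highest gene was 2.51 times the lowest, Sdhc, in TKO cells, against 4.50 times in WT cells. The transcripts taken for Ndufb2, Atp5g1, Ndufab1 and Sdhc are long isoforms, so their levels per kilobase are understated.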

How the data were processed

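The members, gene lists and rules were chosen with earlier results of these data known. Per the submitters' processing notes, TopHat2 2.0.12, featureCounts 1.4.6, edgeR 3.8.6 and StringTie 1.2.2 were used with GRCm38 (mm10), and the strand setting of counting is not given in the sources used here. Libraries came from a stranded kit for messenger RNA, read as 75-base single reads, per the labels' protocols. The signal values deposited by the authors are read counts scaled per library. Fold changes on the log2 scale with mean levels, each p-value and false discovery rate, and a test score in the tables were also deposited by the authors, and only fold changes and rates named as the authors' are printed. The tables hold no value of 0.

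Every gene's signal was divided by the value of 1 read in its library, and 99.7% to 100% of values came out whole within 0.1 reads. The planned count test was replaced by limma because the files hold scaled values. limma 3.58.1 (R 4.3.3, trend on mean level) was fitted to log2(signal + 1) per table, for genes whose signal reached 1 in 3 or more of 6 libraries, with Benjamini-Hochberg adjustment over all genes tested and a threshold of 0.05. Alternatives were edgeR 4.0.16 and DESeq2 1.42.0 on recovered reads, a pseudocount of 0.5, no filter, library-size scaling, median centring, removal of a length and GC trend (mgcv 1.9.3), the replicate block, and each library left out. Figures used Python 3.11.15 with matplotlib 3.10.9. The scripts were tested on simulated counts with 200 changed genes.

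GENCODE vM21 gave lengths, 3' UTRs and coordinates, with 1 transcript per gene, and held 99.8% and 99.9% of the gene identifiers. RefSeq tables gave microRNAs and promoters. Genes with over 0.1 of their 50-base stretches in other genes are named as uncertain. The genes named are the 3 markers, complex II, the 3 highest and 2 lowest of each other complex, members that fell, paralogue groups, extreme assembly factors, and the 5 smallest p-values in Dox against CTL. Other genes were chosen after their values were seen.

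Same-numbered libraries were compared by the correlation, across genes, of their deviations from the group mean. In Dox and CTL these were 0.58 to 0.86, so the numbers were taken to pair the libraries. The columns of Dox replicates 2 and 3 carry the same sequencing suffix, so which column is which of these replicates rests on the number in the column name. In TKO and WT they ran from -0.29 to 0.45, and the numbers were not taken as pairs.

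The values of 1 member are not reported here by name, and it is included in the counts and medians.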

Additional observations from a re-analysis of the deposited data

How the results depend on the processing

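Members whose signal was under 1 in most libraries, such as Cox7a1, could not be tested. The counts of members that rose and fell in TKO cells, 61 and 4, were 64 and 3 with library-size scaling, which moved the median of all genes by 0.11, and 57 and 5 with median centring. They were 62 and 4 by edgeR and by DESeq2. With the length and GC trend removed they were 51 and 13, with a median of 0.42 for all members and of 0.24, 0.74, 0.12, 0.59 and 0.50 for complexes I to V, and the cause was not tested. With the replicate block they were 56 and 4, and with the block and trend removed 46 and 10, with the same medians. Leaving out 1 library gave 54 to 62 that rose and 3 to 5 that fell, and medians of 0.56 to 0.65 for all members, 0.44 to 0.56 for complex I, 0.88 to 0.96 for complex II, 0.38 to 0.54 for complex III, 0.77 to 0.95 for complex IV, 0.62 to 0.83 for complex V and 0.08 to 0.16 for the assembly factors.

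Leaving out both libraries of 1 number with the block, an alternative chosen after the data were seen, gave 33 to 56 and 2 to 3 in TKO against WT, the lowest without replicate 1. The medians were then 0.56 to 0.75 for all members, 0.42 to 0.60 for complex I, 0.86 to 0.98 for complex II, 0.36 to 0.62 for complex III, 0.73 to 0.98 for complex IV, 0.62 to 0.90 for complex V and 0.049 to 0.17 for the assembly factors. The highest were without replicate 3 for all members and for complexes I to V. With library-size scaling the medians were 0.72 for all members, 0.61, 1.03, 0.58 and 0.86 for complexes I, II, III and V and 0.24 for the assembly factors, which were at 0.074 with median centring. Subunits alone had a median of 0.65, and members without shared stretches 0.70 with 1 that fell.

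In Dox against CTL the members that rose and fell numbered 0 and 1 with the replicate block, 3 and 2 with the block and trend removed, and 0 to 7 and 0 to 3 with the block when 1 pair was left out, 7 of them without pair 3.

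In TKO against WT the direction turned with the trend removed for 14 members, 2 of them called as deposited and 3 called with the trend removed. Among those named, Atp5h was at -0.080 (adjusted p 0.19, or 0.29 with the block), Atp5g2 at -0.0093 (adjusted p 0.90, or 0.92 with the block), Ndufa3 at -0.26 (adjusted p 0.017, or 0.033 with the block), Ndufa6 at -0.21 (adjusted p 0.033, or 0.076 with the block) and Atp5c1 at -0.13 (not past the threshold). Of 77 genes named in the text 27 lost a call in TKO against WT under at least 1 alternative and 8 gained one. In Dox against CTL 13 gained one.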
